A study of Mus musculus with 20 samples.

Results

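The open chromatin of mouse hematopoietic stem cells (HSCs) was compared between 3 ATAC-seq libraries titled 6bKO and 3 titled Control, which are 6 of the 20 samples of the series. The libraries were chosen by their titles alone. The cells came from C57BL/6 mice aged 8 weeks that carried the Vav Cre driver, which expresses Cre recombinase across the blood system, in the Control libraries as well as in those titled 6bKO. The RNA libraries of the series carry the genotypes Vav-CRE:Kdm6b+/+ for Control and Vav-CRE:Kdm6bfl/fl for the knockout, with 3 libraries each. The genotype label of all 6 ATAC libraries, in contrast, reads wild-type, so that the title is the only label that separates the groups and they are called the libraries titled 6bKO and the Control libraries here. The labels do not say whether the 3 libraries of a group came from separate mice, and the p-values therefore measure only the spread between these libraries, which may be technical. The chromatin immunoprecipitation samples of the series were not analysed here.

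ATAC-seq uses a transposase that inserts sequencing adapters where DNA is free of nucleosomes, so a peak of inserts marks a promoter, enhancer or other open site. Kdm6b encodes a demethylase that takes methyl groups off lysine 27 of histone H3, a mark laid down by Polycomb repressive complex 2 and found at silent developmental genes. HSCs are the rare marrow cells that renew themselves and give rise to all blood lineages, and they are sorted as lineage-negative, cKit-positive, Sca1-positive, CD150-positive and CD48-negative cells.

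The deposited lists held 341417 peaks, from 44739 to 69729 in a library. No read totals come with the ATAC lists used here, and the depth behind a peak was read only from the lists: the fragment pileup that the peak caller expected from background was 1.79, 2.16 and 4.95 in Control libraries 1, 2 and 3 and 0.526, 1.79 and 1.36 in 6bKO libraries 1, 2 and 3. The weakest peaks that could be called at that background therefore lay at 3.58, 3.48 and 2.69 times background in Control and at 3.93, 3.59 and 3.39 times in the libraries titled 6bKO. Only 26.2%, 26.4% and 29.6% of Control peaks and 30.7%, 23.6% and 31.4% of 6bKO-titled peaks were scored at that background. Other peaks could lie lower, such as one at the start of Zfp36 at 2.67 times in Control library 2. Transcription factor genes that mark HSCs were open in all libraries: 14 or 15 of 16 had a peak within 1 kb of a start in each library. Slamf1, which encodes the sorting marker CD150, had no peak at its start in any library, while Kit had a peak there in all 6. No gene of the non-blood tissue list had a peak at its start in any library. Neutrophil genes stood apart: of the 14 with a listed start, 4, 8 and 12 had a peak there in the 3 Control libraries, against 2, 2 and 4 in the libraries titled 6bKO. Mpo was open in all 3 Control libraries and in no 6bKO-titled one, Elane in Control library 3 alone, and Prtn3 and Ly6g in none.

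The following start sequences belong to regions on which the comparison below turns. They are the windows of all 7 gene starts among the 10 called regions of largest rank difference in each direction, and the last belongs to the strongest gene start that was open in the Control libraries alone. Each runs 5′ to 3′ on the gene's strand, from 250 bases before to 50 bases after the start (RefSeq, GRCm38.p6, the assembly of mm10). Capitals mark matches, on either strand, to the AP-1 motif (TGANTCA) in Gm6634, to the Sp/KLF motif (GGGCGGG) in Marf1 and Btbd7, where neighbouring matches overlap, and to AGATAAG, the motif of GATA factors, in Mylk3.
Spag9, chr11:94043880-94044179, plus strand: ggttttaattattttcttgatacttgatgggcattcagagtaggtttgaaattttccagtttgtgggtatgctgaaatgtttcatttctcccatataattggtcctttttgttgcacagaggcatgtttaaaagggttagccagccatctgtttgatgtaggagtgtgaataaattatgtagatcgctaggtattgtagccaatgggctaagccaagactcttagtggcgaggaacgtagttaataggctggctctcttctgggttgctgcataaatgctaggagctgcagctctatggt
Gm6634, chr3:70807242-70807541, minus strand: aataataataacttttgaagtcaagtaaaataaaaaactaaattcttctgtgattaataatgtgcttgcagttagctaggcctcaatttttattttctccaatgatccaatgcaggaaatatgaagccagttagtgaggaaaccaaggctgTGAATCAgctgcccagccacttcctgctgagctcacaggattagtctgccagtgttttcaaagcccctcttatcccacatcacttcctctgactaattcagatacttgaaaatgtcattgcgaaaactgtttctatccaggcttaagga
Marf1, chr16:14159225-14159524, minus strand: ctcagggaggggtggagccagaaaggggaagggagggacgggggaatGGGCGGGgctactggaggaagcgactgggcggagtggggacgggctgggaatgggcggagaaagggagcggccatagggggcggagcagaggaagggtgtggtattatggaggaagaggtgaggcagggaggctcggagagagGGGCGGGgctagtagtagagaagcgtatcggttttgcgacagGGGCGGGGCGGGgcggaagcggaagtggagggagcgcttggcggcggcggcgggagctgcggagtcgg
Calm4, chr13:3837507-3837806, plus strand: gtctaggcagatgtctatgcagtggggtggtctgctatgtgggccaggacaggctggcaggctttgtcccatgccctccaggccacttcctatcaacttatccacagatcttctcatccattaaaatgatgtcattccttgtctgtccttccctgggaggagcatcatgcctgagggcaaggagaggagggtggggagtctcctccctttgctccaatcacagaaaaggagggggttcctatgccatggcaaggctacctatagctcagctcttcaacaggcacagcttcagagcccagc
Fzr1, chr10:81378321-81378620, minus strand: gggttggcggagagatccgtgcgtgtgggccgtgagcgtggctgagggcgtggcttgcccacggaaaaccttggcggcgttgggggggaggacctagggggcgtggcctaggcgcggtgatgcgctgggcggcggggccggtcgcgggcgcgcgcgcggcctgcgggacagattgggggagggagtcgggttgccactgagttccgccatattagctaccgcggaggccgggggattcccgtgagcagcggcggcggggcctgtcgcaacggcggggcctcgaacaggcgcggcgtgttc
Mylk3, chr8:85380992-85381291, minus strand: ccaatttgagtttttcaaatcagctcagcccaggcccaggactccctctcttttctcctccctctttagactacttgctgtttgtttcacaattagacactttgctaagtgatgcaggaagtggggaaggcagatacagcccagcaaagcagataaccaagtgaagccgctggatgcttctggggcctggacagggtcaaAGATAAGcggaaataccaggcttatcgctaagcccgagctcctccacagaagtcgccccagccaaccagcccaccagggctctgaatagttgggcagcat
Btbd7, chr12:102878393-102878692, minus strand: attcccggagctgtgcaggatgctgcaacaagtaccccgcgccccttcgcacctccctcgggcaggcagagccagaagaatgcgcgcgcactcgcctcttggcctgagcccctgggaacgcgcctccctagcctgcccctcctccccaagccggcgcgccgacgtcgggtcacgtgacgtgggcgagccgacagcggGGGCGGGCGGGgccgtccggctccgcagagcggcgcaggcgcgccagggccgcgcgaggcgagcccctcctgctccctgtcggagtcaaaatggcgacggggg
Nlrp1b, chr11:71230684-71230983, minus strand: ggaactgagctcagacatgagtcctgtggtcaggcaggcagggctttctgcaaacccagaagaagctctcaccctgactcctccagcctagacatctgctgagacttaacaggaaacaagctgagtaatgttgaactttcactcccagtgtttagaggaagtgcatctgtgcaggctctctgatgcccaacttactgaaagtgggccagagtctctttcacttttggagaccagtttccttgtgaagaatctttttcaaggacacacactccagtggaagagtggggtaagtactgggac

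Spag9 and Gm6634 ranked higher in the libraries titled 6bKO, and their windows hold 41% and 38.3% G and C with 3 and 1 CpG. Marf1, Fzr1 and Btbd7 ranked lower there, and their windows hold 68.3%, 73.3% and 73.7% G and C with 24, 40 and 38 CpG. Calm4 and Mylk3 also ranked lower, but their windows hold 54.3% and 52% G and C with 0 and 5 CpG, below the medians of all windows. The Nlrp1b window, whose region had a peak in each Control library and in no 6bKO-titled library, holds 49.3% G and C and no CpG. Among all 21263 start windows of protein-coding genes the median was 56.3% G and C with 13 CpG.

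The libraries titled 6bKO had more peaks on average than Control, but the groups overlapped. The number of peaks was 47450, 44739 and 62125 in Control and 63682, 53692 and 69729 in the libraries titled 6bKO (51438 ± 9354 against 62368 ± 8099, SD, n = 3 each, exact two-sided permutation p = 0.2, where 3 libraries against 3 cannot give less than 0.1). Peaks covered 15.1, 15.7 and 23.9 Mb in Control and 19.2, 19.8 and 28.1 Mb in the libraries titled 6bKO. Library 3 of each group was the largest in number and in covered length.

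Peak width did not separate the groups. The median width was 273, 299 and 327 bp in Control and 274, 317 and 346 bp in the libraries titled 6bKO, and the difference of 12.7 bp was smaller than the spread within either group (SD 27 and 36.2 bp, exact permutation p = 0.7). Its sign turned without Control library 1 (-0.667 bp) and without 6bKO library 3 (-4.17 bp). Peaks of 500 bp or more made up 12.99%, 18.1% and 23.3% of the Control lists and 10.0%, 21.3% and 26.6% of the lists titled 6bKO.

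The enrichment that the authors' peak caller gave each peak did separate them. The median fold over background was 5.37, 5.65 and 5.05 in Control and 6.51, 6.65 and 7.34 in the libraries titled 6bKO (5.36 ± 0.303 against 6.83 ± 0.442, SD, n = 3, exact permutation p = 0.1, 0.425 after Benjamini-Hochberg adjustment over 17 measures). The groups did not overlap, and the p is the smallest this design allows. The background pileup given above was highest in Control library 3, where the median fold was lowest. Control library 1 and 6bKO library 2 both had a pileup of 1.79, with median folds of 5.37 and 6.65. In 6bKO library 1 the pileup was the lowest of all, at 0.526, and the median fold was the lowest of its group. The part of the pileup in the difference was not tested. Fold values were therefore compared only as ranks within a library from here on.

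The share of peaks on the X chromosome was also higher in every library titled 6bKO, at 2.97%, 2.12% and 2.18%, than in the Control libraries, at 1.70%, 1.78% and 1.75% (exact permutation p = 0.1, adjusted 0.425). The Y chromosome held 25, 32 and 31 peaks in Control and 16, 28 and 20 in the libraries titled 6bKO. Uty, a gene of the Y chromosome, had a peak at its start in every library but 6bKO library 1.

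**Figure D1:**
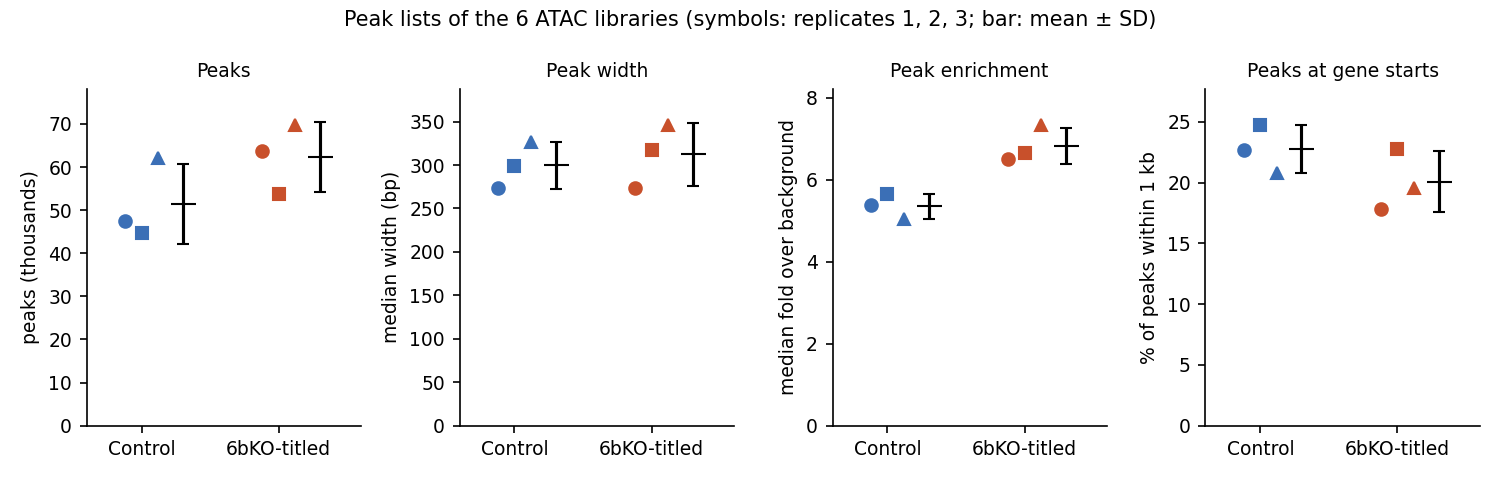
Number of peaks, median peak width in bp, median fold over background and percent of peaks within 1 kb of a gene start, for each of the 3 Control and 3 6bKO-titled libraries (circle, square and triangle are replicates 1, 2 and 3; bars are mean ± SD). Of these 4 measures only the median fold separates the groups, at 5.05 to 5.65 in Control and 6.51 to 7.34 in the libraries titled 6bKO.

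Gene starts made up a smaller share of the strongest peaks in the libraries titled 6bKO. Among the 1000 peaks of highest fold, 54.7%, 70.8% and 73.0% lay within 1 kb of a gene start in Control libraries 1, 2 and 3, against 46.0%, 44.0% and 43.6% in the libraries titled 6bKO (66.2% ± 10.0 against 44.5% ± 1.33, SD, n = 3, exact permutation p = 0.1, 0.5 after adjustment over 20 tests). The groups did not overlap, and Control library 1 lay closest to the libraries titled 6bKO. The difference ranged from -27.4 percentage points without Control library 1 to -18.2 without Control library 3. The median distance of these peaks from a gene start was 0.276, 0.121 and 0.116 kb in Control and 3.96, 6.64 and 6.80 kb in the libraries titled 6bKO.

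The same order held at ranks 1001 to 5000, with 47.1%, 58.5% and 60.0% at gene starts in Control and 41.0%, 44.7% and 40.5% in the libraries titled 6bKO (exact permutation p = 0.1). At ranks 5001 to 10000 the shares were 37.1%, 41.1% and 41.0% against 35.6%, 37.8% and 36.1%, and the groups overlapped. Over the whole lists, 22.7%, 24.7% and 20.8% of Control peaks and 17.9%, 22.8% and 19.6% of 6bKO-titled peaks lay at gene starts (exact permutation p = 0.3), and the groups overlapped. With every list trimmed to its strongest 44739 peaks, the shares were 24.6% ± 0.964 and 24.3% ± 1.84.

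Ranking the peaks by the −log10 q of the peak caller instead of the fold left a narrower gap. Of the first 1000 peaks by q, 57.13%, 74.8% and 75.6% in Control and 52.7%, 52.7% and 57.08% in the libraries titled 6bKO lay at gene starts. Control library 1 and 6bKO library 3 were then nearly level, and the groups were kept apart by less than 1 peak in 1000. The median width of the 1000 peaks of highest fold was 516.5, 575.5 and 619 bp in Control and 479, 539.5 and 574 bp in the libraries titled 6bKO, and overlapped.

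**Figure D2:**
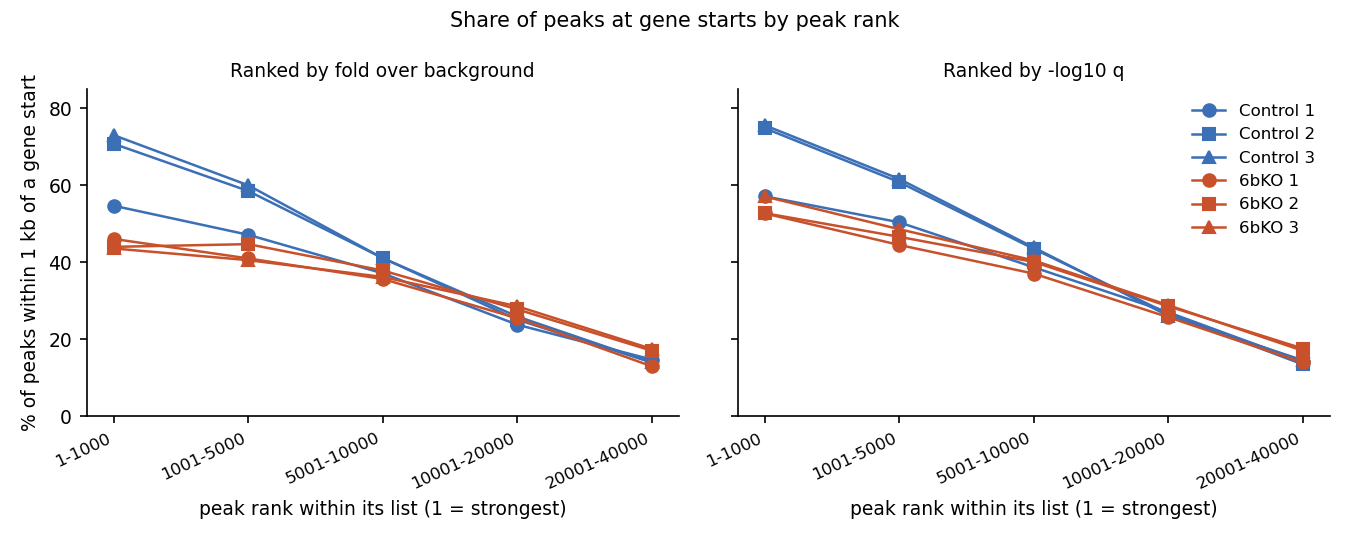
Percent of peaks within 1 kb of a gene start by the rank of the peak in its own list, for the 6 libraries, ranked by fold (left) and by −log10 q (right). Among the 1000 peaks of highest fold the Control libraries lie at 54.7% to 73.0% and the libraries titled 6bKO at 43.6% to 46.0%, and all 6 come together at lower ranks.

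To compare the same sites, peaks that overlapped were merged into 149774 regions, of which 19466 had a peak in all 6 libraries and are called common regions. Common regions had a median width of 667 bp, and 40.6% of them lay within 1 kb of a gene start, against 11.2% of all regions. In each library the common regions were ranked by fold, where percentile 100 is the strongest, and the ranks were turned into normal scores and tested with limma. A score difference of 1 is thus a shift of 1 SD of the normal scores within a library, and a positive one means a higher rank in the libraries titled 6bKO. By limma with Benjamini-Hochberg adjustment at 0.05, 373 common regions (1.92%) ranked higher and 272 (1.4%) ranked lower in the libraries titled 6bKO. The ranks of the groups did not overlap in 2297 regions (11.8%) on the higher and 2588 (13.3%) on the lower side, and these include 370 of the regions called higher and 268 of those called lower. Called regions were picked by the difference between the groups, so a lack of overlap in a called region adds nothing to its call.

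These counts moved with single libraries. Without Control library 1 they were 961 higher and 811 lower, and without Control library 2 they were 145 and 47. Leaving out Control library 3 gave 68 and 32, 6bKO library 1 gave 98 and 55, 6bKO library 2 gave 34 and 40, and 6bKO library 3 gave 42 and 59. Score correlations across common regions were highest between Control libraries 2 and 3 (0.841) and between 6bKO libraries 2 and 3 (0.830). Control library 1 correlated at 0.695 and 0.714 with the other Control libraries and at 0.711 with 6bKO library 2. These correlations are across regions, which are not independent, and are given as a description.

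Regions that ranked lower lay mostly at gene starts, and regions that ranked higher lay mostly away from them. Of the called regions whose distance could be measured, 139 of 258 lower ones (53.9%) and 34 of 363 higher ones (9.37%) were within 1 kb of a start. The median distance to a start was 0.329 kb for the lower and 22.9 kb for the higher regions. Among the 7675 common regions at gene starts, 1.81% were called lower and 0.443% higher. Among the 5120 regions at 10 to 50 kb the order was the opposite, with 0.918% lower and 3.07% higher.

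The whole distribution moved the same way. Common regions at gene starts had a median percentile of 56.1, 65.0 and 65.4 in Control and of 53.2, 54.3 and 51.5 in the libraries titled 6bKO (62.2 ± 5.28 against 53.0 ± 1.41, SD, n = 3, exact permutation p = 0.1). At 10 to 50 kb the medians were 47.2, 42.5 and 41.8 against 50.1, 48.9 and 52.4 (43.9 ± 2.92 against 50.5 ± 1.75, exact permutation p = 0.1). The groups did not overlap in either bin, and Control library 1 was again the nearest to the libraries titled 6bKO. Because ranks within a library sum to a constant, a fall at gene starts and a rise elsewhere are 2 sides of the same measurement. Ranking regions at starts and regions away from starts apart left 190 regions called higher and 200 called lower, of which 175 and 160 were among those called over all common regions.

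The neutrophil gene starts that were open in more Control libraries, given above, and the background pileup of each library differ between the same libraries, and their part in the order of gene starts was not tested.

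**Figure D3:**
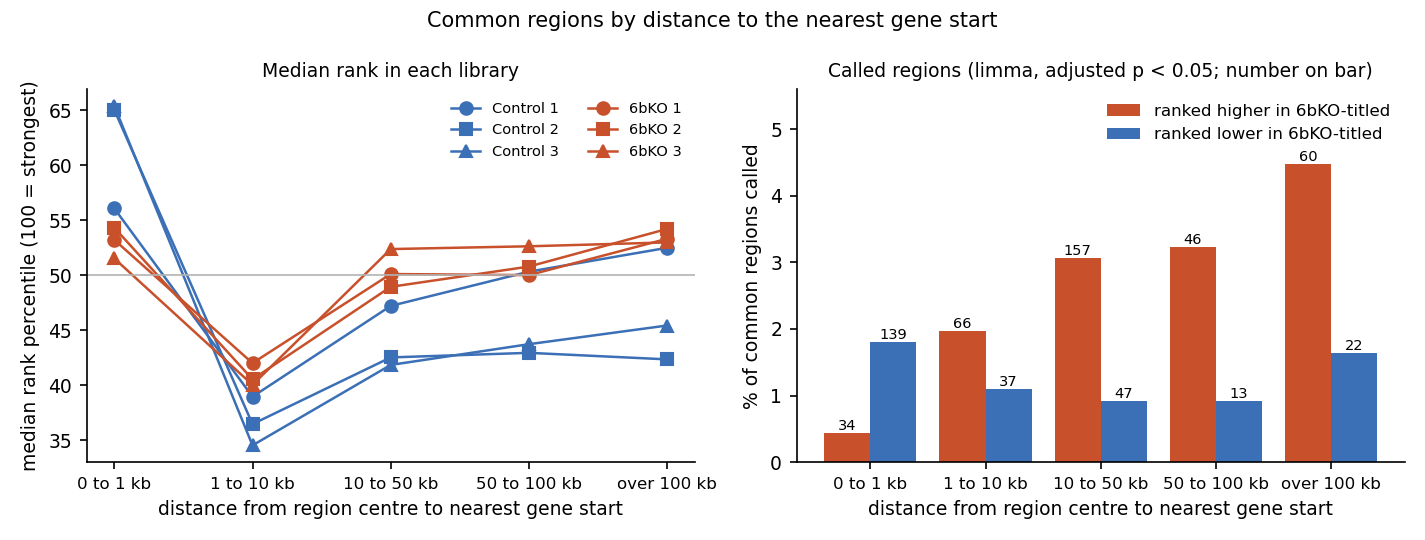
Median rank percentile of common regions in each of the 6 libraries (left) and percent of common regions called by limma (right, number of regions on the bar), by distance from the region's centre to the nearest gene start. At 0 to 1 kb the Control libraries lie at 56.1 to 65.4 and the libraries titled 6bKO at 51.5 to 54.3, and 139 regions were called lower against 34 higher.

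Width and base composition moved with the ranks. With common regions split into 4 equal sets by width, in the narrowest set (up to 530 bp), 164 were called higher and 46 lower, and in the widest (over 851 bp), 18 were called higher and 98 lower. Of the widest set 65.0% lay at a gene start, against 16.2% of the narrowest. At gene starts, split into 4 sets likewise, the regions with the lowest G and C content in the start window (up to 56.7%) had 16 regions called higher and 14 lower, while those with the highest (over 68.3%) had 1 higher and 59 lower. The median percentile of that highest set was 52.7, 66.5 and 67.5 in Control and 46.9, 45.9 and 40.1 in the libraries titled 6bKO (exact permutation p = 0.1). In the lowest set it was 58.2, 62.6 and 63.0 against 57.4, 58.9 and 57.9, and the groups overlapped. Base composition, width and position at a gene start thus moved together, and the part of each was not tested.

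Motif matches in the start windows are given as a description and were counted on both strands, without regard to overlap between motifs. The Sp/KLF motif (GGGCGGG), read by factors that bind GC boxes, was in 33.9% of all 21263 start windows and in 52.9% of the 8355 with a common region. It was in 112 of the 155 windows whose region ranked lower (72.3%) and in 6 of the 24 whose region ranked higher (25%). The ETS motif (CCGGAAG) was in 11.6% of all windows, 21.4% of those with a common region, 15.5% of the lower and 16.7% of the higher set. The remaining motifs were rarer: over all windows the letters TGANTCA of AP-1 were in 6.99%, TGTGGTT of RUNX factors in 4.71%, AGATAAG of GATA factors in 2.64% and TGACGTCA of CREB in 2.23%. In the lower set these were in 7, 7, 1 and 2 windows, and in the higher set in 2, 0, 3 and 2.

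The region that rose most in rank lay inside Miga1, which encodes a mitochondrial outer membrane protein that takes part in mitochondrial fusion (chr3:152315662-152316024). Its percentile was 16.6, 33.5 and 62.1 in Control and 99.97, 99.88 and 99.85 in the libraries titled 6bKO. The score difference was 3.50 (SE 0.32, limma adjusted p = 9.31e-06), and it was called with any of the 6 libraries left out. A second region inside Miga1, 568 bp away (chr3:152314598-152315093), had a peak in every Control library, at 11.5, 7.02 and 6.94 times background, and in none titled 6bKO. The first region of the pair is thus open in all 6 libraries and near the top of the lists titled 6bKO, and its neighbour was called in Control alone.

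Jam3, which encodes a junctional adhesion molecule, held a region at percentile 64.4, 44.3 and 52.6 in Control and 97.2, 99.5 and 99.2 in the libraries titled 6bKO (chr9:27099386-27099903). Its score difference was 2.20 (SE 0.29, limma adjusted p = 0.00253). A region inside Zhx3, which encodes a homeodomain and zinc finger repressor, lay at 58.8, 62.4 and 77.8 against 99.7, 98.3 and 99.8 (chr2:160860318-160860767). Plekha5, which encodes a pleckstrin homology domain protein, held a region at 11.2, 22.2 and 30.4 against 89.6, 89.9 and 89.2 (chr6:140466259-140466705). In these 3 genes the groups did not overlap, the libraries titled 6bKO lay within 3 percentiles of each other, and the calls held with any library left out (highest limma adjusted p = 0.0318).

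At an internal start of Spag9, which encodes a scaffold protein of JNK and p38 signalling, the region whose window is printed above lay at 89.2, 30.1 and 41.1 in Control and 97.9, 98.5 and 99.9 in the libraries titled 6bKO (chr11:94043934-94044387). Its score difference was 2.25 (SE 0.39, limma adjusted p = 0.00869). At the start of the long non-coding RNA Gm6634 the percentiles were 67.3, 10.99 and 14.4 against 88.4, 88.8 and 99.2. Inside Hdac4, a histone deacetylase gene, they were 7.74, 1.14 and 6.16 against 63.3, 49.7 and 82.5. The groups did not overlap, and Control library 1 was the nearest Control at all 3. Without 6bKO library 3 the calls ended, with limma adjusted p = 0.0520 at Spag9, 0.0680 at Gm6634 and 0.0675 at Hdac4, while the score differences were still 1.93, 1.82 and 1.91.

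The 10 regions of largest positive difference also included ones inside Gosr2, a Golgi SNARE gene, the long non-coding RNA Gm16287 and Flywch1, a zinc finger gene. Their score differences were 2.10, 2.15 and 2.14. The call at Gosr2 ended without 6bKO library 2 (limma adjusted p = 0.0696). That at Gm16287 ended without 6bKO library 2 or 3 (highest 0.0847), and that at Flywch1 ended without any library except Control 1 (highest 0.141).

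The region that fell most in rank lay at the start of Marf1, which encodes an RNA-binding protein named for meiosis arrest, where the microRNA gene Mir484 overlaps it (chr16:14159038-14159711). Its percentile was 77.1, 96.7 and 92.2 in Control and 0.722, 15.3 and 21.9 in the libraries titled 6bKO. The score difference was -2.75 (SE 0.42, limma adjusted p = 0.00566), and the call held without any library in turn. The start window contains 4 Sp/KLF matches, the last pair overlapping.

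Fzr1 encodes an activator of the anaphase-promoting complex, which marks cell cycle proteins for destruction, and its start region lay at 65.2, 84.5 and 89.2 in Control and 11.7, 5.79 and 15.2 in the libraries titled 6bKO (chr10:81378324-81379043). Its score difference was -2.14 (SE 0.36, limma adjusted p = 0.00760). The start region of Btbd7, which encodes a BTB domain protein, lay at 81.8, 87.3 and 80.2 against 10.9, 9.89 and 26.99 (chr12:102877369-102878764), a score difference of -2.01 (SE 0.34, limma adjusted p = 0.00801). The groups did not overlap at these starts, and both calls held with any library left out (highest limma adjusted p = 0.0476).

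Not all falling regions lay in GC-rich starts. A region inside the mucin gene Muc3 lay at 82.5, 66.0 and 54.6 in Control and 4.63, 3.01 and 0.850 in the libraries titled 6bKO (chr5:137152155-137152989). At the start of Calm4, a calmodulin-like gene whose start window holds no CpG, the percentiles were 69.9, 82.4 and 64.9 against 9.90, 1.29 and 12.5. At an internal start of Mylk3, which encodes the myosin light chain kinase of heart, they were 58.2, 47.7 and 53.8 against 3.46, 0.306 and 8.72. The Muc3 call held with any library left out (highest limma adjusted p = 0.0343). The Calm4 call ended without 6bKO library 2 (0.0528), and the Mylk3 call without Control library 3, 6bKO library 1 or 6bKO library 2 (highest 0.0911).

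The other 4 regions of the 10 with the largest fall lay inside Ccl4, a chemokine gene, Ccdc162, Syne3, which encodes a nuclear envelope protein, and Ncald, which encodes a neuronal calcium sensor. Their score differences were -2.29, -2.27, -2.13 and -2.08. The Ccdc162 call held with any library left out. The call at Ccl4 ended without Control library 2, 6bKO library 2 or 6bKO library 3 (highest limma adjusted p = 0.0719). At Syne3 it ended without Control library 2 or 3 or 6bKO library 1 or 2 (highest 0.0879), and at Ncald without 6bKO library 3 (0.0577).

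**Figure D4:**
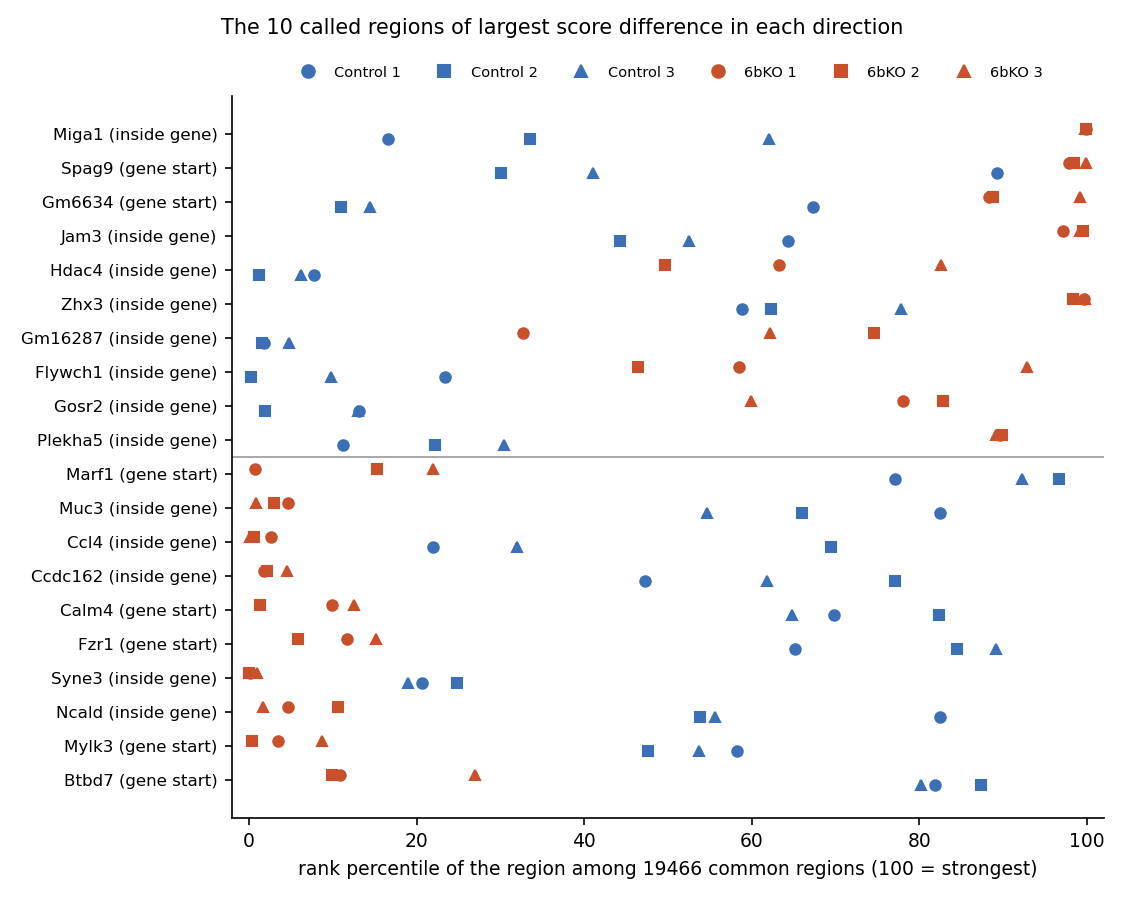
Rank percentile of the region among 19466 common regions (100 is the strongest) in each library, for the 10 called regions with the largest positive (top) and negative (bottom) score difference. The regions were chosen for their difference, and the groups do not overlap in any of the 20, nor in 370 of all 373 called higher and 268 of all 272 called lower. At a gene start lie 2 of the 10 at the top and 5 of the 10 at the bottom.

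Regions open in only 1 group were few. There were 1948 regions (1.3% of 149774) with a peak in all 3 libraries titled 6bKO and in no Control library, and 431 (0.288%) with a peak in all 3 Control libraries and in no 6bKO-titled library. Both sets were narrower than common regions, with median widths of 387.5 and 407 bp, and ranked near the middle of their lists, at median percentiles of 48.7 and 43.0. Of the 6bKO-only regions 137 of 1887 (7.26%) and of the Control-only regions 38 of 413 (9.20%) lay at a gene start, each below the 11.2% of all regions. The X chromosome held 51 (2.62%) of the 6bKO-only and 7 (1.62%) of the Control-only regions, against 2.28% of all regions. Chromosome 11, where Kdm6b lies, held 112 (5.75%) and 34 (7.89%), against 6.25% of all and 7.91% of common regions, so these shares lay near the background. By far most regions were found in fewer libraries: 89727 (59.9%) had a peak in a single library, with a median width of 219 bp.

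The imbalance between the 2 sets moved with list length. With every list trimmed to the same 44739 peaks there were 1486 6bKO-only and 731 Control-only regions. Without Control library 3, the largest of its group, they numbered 4579 and 701, and without Control libraries 1 and 2 in turn 2359 and 2289 and 2200 and 1170. Without 6bKO libraries 1, 2 and 3 in turn they numbered 5199 and 478, 3665 and 544, and 2480 and 1354. In base pairs, the mean overlap of 2 lists (Jaccard index) was 0.390 within the libraries titled 6bKO, 0.384 within Control and 0.362 between the groups. Single pairs overrode the groups: Control library 3 shared more with 6bKO library 3 (0.486) than with Control library 2 (0.435).

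The strongest 6bKO-only region lay 22.9 kb from Bdnf, a neurotrophin gene (chr2:109749981-109750296), and reached 19.2, 15.2 and 16.7 times background in 6bKO libraries 1, 2 and 3. Regions inside Nav3, a neuron navigator gene, and Grb14, an adaptor of the insulin receptor, reached 14.1, 17.0 and 16.4 and 14.5, 16.3 and 16.1 times. One 18.2 kb from Psg28, a pregnancy-specific glycoprotein gene, reached 14.7, 16.1 and 16.5 times. The remaining 6 of the 10 lay near or inside Opa3, Uspl1, the cadherin gene Cdh11, Slco6d1, Fam181b and the teneurin gene Tenm2. Regions were tied to genes by position alone, which does not show that they act on them.

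Among the 10 strongest Control-only regions, the first 5 all lay on chromosome 11. Nlrp1b, which encodes a sensor of the inflammasome, had a pair of them. One lay 8.78 kb outside the gene (chr11:71251295-71251777) at 12.1, 13.9 and 19.8 times background in Control libraries 1, 2 and 3. Another lay at an internal start (chr11:71230573-71231073), the last window printed above, at 10.6, 9.04 and 12.2 times. Regions inside Rnf157, a ubiquitin ligase gene, and Gria1, a glutamate receptor gene, and near Rdm1 made up the rest of the 5. Others lay near Rap1a, a small GTPase gene, and Fbxw7, the substrate receptor of a ubiquitin ligase. Without chromosome 11 there were 1836 6bKO-only and 397 Control-only regions.

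The peaks over the Kdm6b gene itself (chr11:69398508-69420367) were read beside the titles, but the labels do not give the floxed exons. An internal region (chr11:69401233-69401616) had a peak in all 3 Control libraries, at 5.10, 4.52 and 8.04 times background, and in none of those titled 6bKO. A common region just outside the 3′ end (chr11:69396721-69397263) ranked near the bottom in Control, at percentile 0.116, 0.470 and 2.74, and higher in the libraries titled 6bKO, at 34.2, 34.2 and 27.4. Its score difference was 2.05 (SE 0.44, limma adjusted p = 0.0194). The groups did not overlap there. The next common region on that side (chr11:69395251-69396374) went the other way, at 23.0, 33.4 and 21.3 against 12.7, 9.35 and 2.75. It was not called (score difference -0.80, limma adjusted p = 0.269). The groups did not overlap there either, as in 13.3% of all common regions on the lower side. The call at the first of the pair ended without Control library 2 (0.0642), 6bKO library 1 (0.0633), 6bKO library 2 (0.0847) or 6bKO library 3 (0.0675).

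Towards the 5′ end of Kdm6b, a common region (chr11:69417926-69419263) lay at percentile 68.8, 84.3 and 71.2 in Control and 77.4, 65.8 and 46.9 in the libraries titled 6bKO, and the groups overlapped (limma adjusted p = 0.590). They also overlapped at the internal common regions chr11:69408537-69409077 and chr11:69409260-69409953 (limma adjusted p = 0.683 and 0.897). The internal region chr11:69410286-69411002 had a peak in every Control library and in 6bKO libraries 2 and 3. At chr11:69411772-69412069 only Control library 3 had a peak. Kdm6a, the X-linked gene of the same demethylase family, had a start region at 91.6, 87.3 and 95.2 against 80.9, 91.5 and 76.9 (chrX:18161918-18162890), which also overlapped (score difference -0.40, limma adjusted p = 0.452).

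Gene lists were read against all protein-coding genes, and only members with a listed start were counted. Of 17492 such genes, 9020, 9353 and 10333 had a peak at a start in Control and 9369, 10034 and 10828 in the libraries titled 6bKO. In 7650 of them a start held a common region, of which any was called higher in 27 genes (0.353%) and lower in 145 (1.9%). Where a gene had several, the region of highest mean rank was used for its score difference, which was above 0 in 2423 and below 0 in 5227, with a median of -0.24, so a list with a negative median is not set apart by its sign. An unadjusted p under 0.05 was reached by 1434 (18.7%).

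Immediate-early genes, the targets that signalling cascades switch on within minutes, were open almost everywhere: 26, 26 and 27 of 27 had a peak at a start in Control and 26, 27 and 27 in the libraries titled 6bKO. Of the 24 with a common region at the start, 21 had a negative and 3 a positive difference, with a median of -0.55, and 5 had an unadjusted p under 0.05. The only call among them was Btg2, an antiproliferative gene, at percentile 63.5, 67.8 and 55.1 in Control and 6.06, 15.2 and 9.81 in the libraries titled 6bKO. Its score difference was -1.60 (SE 0.37, limma adjusted p = 0.0265), and the call held only when Control library 1 was left out, with 0.0224, and ended without any other library (highest 0.101). It also ended when regions at starts were ranked apart from the others (0.0646). Fos, which encodes a subunit of AP-1, was not called (limma adjusted p = 0.724), nor was the phosphatase gene Dusp1 (0.257). The Dusp1 region ranked lower in the libraries titled 6bKO without overlap of the groups, as did 13.3% of all common regions. Fosb, another AP-1 subunit gene, had a start peak in every library but Control 1 and so no common region.

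Polycomb and H3K27 demethylase genes numbered 19, and 13 of the 14 with a common start region had a negative difference, with a median of -0.72, and 6 had an unadjusted p under 0.05. Mtf2, which encodes an accessory subunit of Polycomb repressive complex 2, was called lower, at percentile 70.4, 77.6 and 93.2 in Control and 20.5, 18.8 and 56.7 in the libraries titled 6bKO (score difference -1.44, SE 0.37, limma adjusted p = 0.0382). The call held without Control library 1 (0.0144) or 6bKO library 3 (0.0492) and ended without any other library (highest 0.196) and when regions at starts were ranked apart (0.0939). Cbx8, a subunit of Polycomb repressive complex 1 (0.0521), and Eed, the core subunit of complex 2 that reads the mark (0.0846), were not called.

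HSC transcription factor genes had 0 calls by limma, and 0 also at an unadjusted p under 0.05, with 11 negative and 3 positive differences and a median of -0.40. Genes of HSC surface and niche receptors likewise had 0 and 0, with 5 negative and 1 positive difference and a median of -0.31. Cell cycle genes (6 positive, 13 negative, median -0.14) and housekeeping genes (4 positive, 7 negative, median -0.08) lay nearer 0.

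The Hox clusters pattern the body axis and are classic Polycomb targets, and 22 of the 39 Hox genes had a listed start. Of these, 5, 6 and 7 had a peak there in Control and 10, 8 and 13 in the libraries titled 6bKO. Hoxb1 had one in each library titled 6bKO and in no Control library. Hoxd1, Hoxd8 and Hoxd11 had one in 6bKO library 3 alone, Hoxd12 in 6bKO library 1 alone, and Hoxd9 and Hoxd13 in both. These are the libraries with the most peaks. Hoxa13 and Hoxc4 were instead open in more Control libraries. The 3 Hox genes with a common region all had a positive difference, with a median of 0.48, and 0 were called by limma or had an unadjusted p under 0.05. Interferon-stimulated genes followed a like order with a tie, at 9, 10 and 13 of 16 in Control and 13, 15 and 15 in the libraries titled 6bKO, and Ifi44 was open in the latter alone. Other developmental genes outside blood did not: 6, 3 and 5 of 17 were open in Control and 6, 5 and 5 in the libraries titled 6bKO. Of all protein-coding genes, 51.6%, 53.5% and 59.1% were open in Control and 53.6%, 57.4% and 61.9% in the libraries titled 6bKO, the most in 6bKO library 3.

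The other blood cell lists were also read at gene starts. Of 10 T cell genes, 2, 3 and 3 were open in Control and 4, 3 and 6 in the libraries titled 6bKO. Among them Bcl11b, a T cell transcription factor gene, was open in the libraries titled 6bKO alone, while Cd3e, Cd3d, Cd3g and Cd8a were open in none. Megakaryocyte genes were open at 5, 4 and 5 against 5, 6 and 5 starts, and erythroid genes at 3, 3 and 4 against 3, 3 and 3. Monocyte genes were open at 4, 3 and 5 against 4, 5 and 4 starts, mast cell and basophil genes at 2, 1 and 3 against 1, 1 and 1, and B cell genes at 0, 1 and 1 against 1, 1 and 1. A peak list from a sorted population cannot tell a few cells of another type from a weak peak in all cells.

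**Figure D5:**
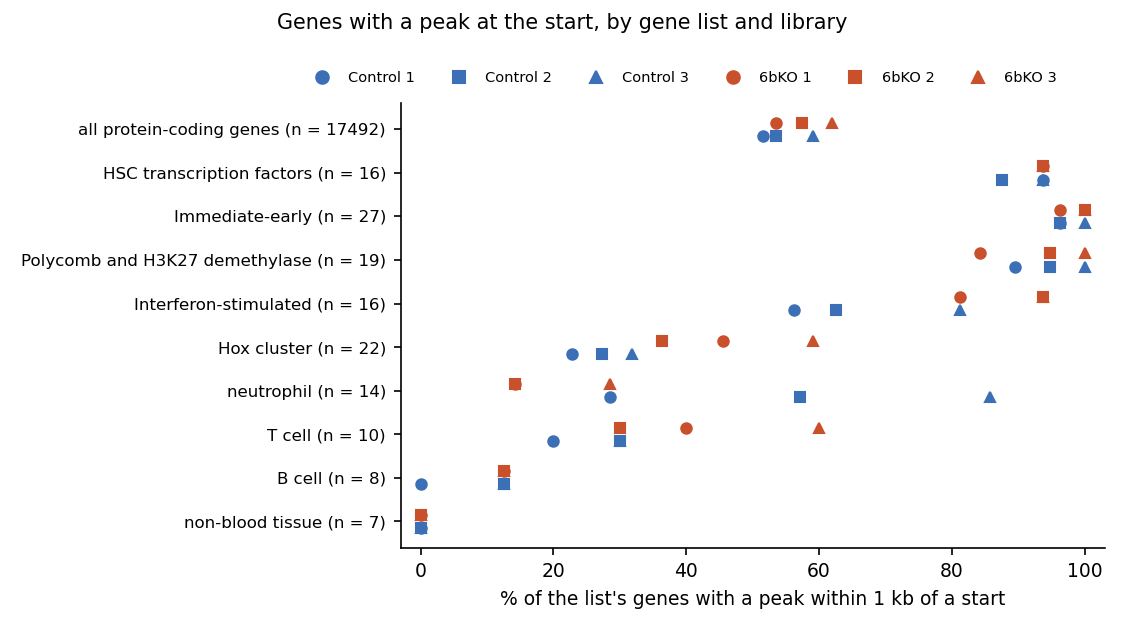
Percent of the genes of each list with a peak within 1 kb of a start in each of the 6 libraries, with all protein-coding genes at the top for comparison. Only genes with a listed start are counted. Neutrophil genes are open more often in the Control libraries (4, 8 and 12 of 14 against 2, 2 and 4) and Hox genes more often in the libraries titled 6bKO (10, 8 and 13 of 22 against 5, 6 and 7).

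The RNA libraries give a second readout of the Kdm6b genotypes, in other libraries than those used for ATAC. By edgeR with Benjamini-Hochberg adjustment, 37 of 15185 transcripts (0.244%) were higher and 33 (0.217%) lower in Kdm6b-KO. Without Control library 1 these counts were 187 and 332, without Control library 2 27 and 19, and without Control library 3 80 and 81. Without Kdm6b-KO libraries 1, 2 and 3 in turn they were 32 and 65, 16 and 8, and 13 and 7. None of the 21 called genes with a common region at the start was among the regions called by limma, and 2 of the 21 had an unadjusted p under 0.05, against 18 higher and 126 lower calls and 1313 unadjusted ones (18.7%) among all 7008 genes tested in both. With 21 genes, 0 calls is near that background. Of 23 protein-coding genes with higher RNA and a listed start, 10 (43.5%) had a 6bKO-only region within 50 kb and 5 (21.7%) a Control-only region, against 1207 (12.4%) and 370 (3.79%) of all 9773 such genes. Of 14 with lower RNA, 7 (50%) and 0 did. These shares are a description of few genes. Across 7008 genes the start score difference and the RNA log2 fold change correlated at 0.0827 (Pearson) and 0.0807 (Spearman), and genes are not independent replicates.

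At Nlrp1b the RNA and the group-only regions went in opposite directions. The region 8.78 kb outside the gene was tied to it by position alone. Its RNA stood at 0.307, 1.398 and 0.950 CPM (counts scaled to library size) in the Control libraries, against 13.8, 9.37 and 14.0 in the knockout (log2 fold change 3.76, edgeR adjusted p = 0.000834), while both of its group-only regions, the start region included, were open in the Control ATAC libraries alone. The Nlrp1b RNA call held with any RNA library left out (highest edgeR adjusted p = 0.0177). RNA of Nlrp1a, a gene of the same family, was lower in the knockout (log2 fold change -2.72, edgeR adjusted p = 0.0486). The Nlrp1a start region was not called (limma adjusted p = 0.386). Fos RNA was higher in the knockout (log2 fold change 3.65, edgeR adjusted p = 0.0323), while its start region was not called, as given above. At Med1, a Mediator subunit gene, and Srsf2, a splicing factor gene, whose transcripts also differed, the start regions did not pass (limma adjusted p = 0.352 and 0.209), although the ranks of the groups did not overlap. The Fos RNA call ended without Control library 2 (0.0935) or Kdm6b-KO library 3 (0.0982). Kdm6b RNA had 92.0, 282 and 221 CPM in the Control libraries against 142, 202 and 191 in the knockout, and the groups overlapped (edgeR adjusted p = 0.882). These counts cover the whole gene, so RNA that lacks only the floxed exons would still be counted.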

How the data were processed

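Each ATAC library has its own deposited peak list. The tools named for ATAC in the submitters' processing notes are MACS2, without a version, BWA 0.7.16a and cutadapt 1.16, with mm10 as build. In the deposited lists each peak has a score, a fold over background (a ratio), and p and q as −log10 values. These are the authors' values for each peak, and they were used only to describe, filter or rank peaks within a list. The smallest −log10 q in a list was 2.00. The RNA files hold the authors' deposited read counts per gene, and the submitters' processing notes name STAR 2.0.4, featureCounts 1.4.5 and HTSeq 0.8.0. Assigned counts ranged from 6793873 to 19336121 per RNA library. Reads assigned to no gene, 80.3% to 83.5% of each file, entered neither library sizes nor tests.

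Regions are merged peaks, from any of the 6 lists, that share 1 bp or more. Gene starts came from 32851 RefSeq start windows (GRCm38.p6). For shares of peaks or regions, a peak or region counted as at a start when its summit or centre lay within 1 kb. For counts of genes and for the gene lists, any part of a peak or common region within 1 kb of a start was enough. Chromosome 18 was not used for gene starts, and Kdm6b has no entry in that table. The design had named gene ends or starts, and starts alone were used. Ranks of the common regions were turned into normal scores and fitted with limma 3.58.1 (trend and robust, group only, two-sided). Counts were fitted with edgeR 4.0.16 (filterByExpr, TMM, quasi-likelihood, group only). Both were adjusted by Benjamini-Hochberg over all features, with a threshold of 0.05, in R 4.3.3. Values per library were compared with exact two-sided permutation tests, which 3 against 3 limits to p of 0.1 or more. The code was tested on simulated data. Figures were drawn with matplotlib 3.10.9.

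Groups came from the titles. Replicate numbers did not pair libraries: deviations of same-numbered ATAC libraries correlated at 0.034, -0.007 and 0.096, and those of RNA libraries at 0.032, 0.161 and -0.127. The genes to name were Kdm6b, Kdm6a, the 10 called common regions at a gene with the largest difference in each direction, the 10 strongest group-only regions in each direction within 50 kb of a gene, and up to 2 members of each list per direction. Fos, Fosb, Dusp1, Med1 and Srsf2 were added because their transcripts differed in earlier work on these files. Cbx8, Eed, Uty and the list members named for their open starts were chosen after their values were seen. 1 region that this rule names is not reported here. Members and lists were chosen with earlier results of these data known. The alternatives were a −log10 q of at least 5, lists of equal length, ranking by q, a 100 bp overlap, autosomes only, a replicate block, each library left out, and for RNA other scaling, no filter and DESeq2 1.42.0. Added after seeing the data were ranks taken apart at and away from starts, chromosome 11 left out, and the order by q and the left-out libraries for the strongest 1000 peaks.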

Additional observations from a re-analysis of the deposited data

How the results depend on the processing

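With 1 library left out at a time, the difference in median peak width ranged from -4.17 to 31.8 bp, with its sign turned without Control library 1 (-0.667) or 6bKO library 3 (-4.17). The 6bKO-only regions ranged from 2200 to 5199 and the Control-only regions from 478 to 2289, where fewer libraries had to hold or lack a peak. Common regions called higher ranged from 34 to 961 and lower from 32 to 811, transcripts higher from 13 to 187 and lower from 7 to 332. With lists of equal length there were 731 Control-only regions. Ranking by the −log10 q gave 595 regions higher and 468 lower, of which 268 and 241 were among those called by fold, and ranks taken apart at and away from starts gave 190 higher. Without the filter on low counts 249 transcripts were higher and 327 lower, and with DESeq2 183 and 255. The replicate block gave 406 regions higher and 295 lower, and for RNA 35 transcripts higher and 53 lower. The cause of these differences was not tested.

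Of the 23 named regions called by limma, 9 kept their call without each library in turn, and 36 of 138 such checks ended a call. Among 161 checks of other settings 2 did, at Btg2 and Mtf2. The named group-only regions kept their group in all 94 checks of other settings. These settings only take peaks away or ask for more overlap, and the group without a peak cannot gain one by them. The regions were also picked as the strongest, which are the last to be trimmed. Leaving out a library cannot change their group either. These checks therefore do not test how firm the group-only regions are. The depth of the ATAC libraries is known only through the background pileup, 3 libraries a group limit the exact tests, and the wild-type genotype label of the libraries titled 6bKO cannot be resolved from the files.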
